A study of Mus musculus with 6 samples.

Results

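Wfs1 and 9 further genes that release, store or sense calcium in the endoplasmic reticulum (ER) were described in ribosome-bound RNA of cortical S100a10 cells from mice lacking p11. Members were all probe sets that the platform annotation pairs with 1 symbol among Wfs1, Cisd2, Itpr1, Itpr2, Ryr2, Ryr3, Atp2a2, Atp2a3, Stim1 and Stim2. This gave 27 probe sets for 9 of the 10 genes, out of 18193 genes named in the table. No probe set was named for Itpr1, which is not analysed here. The genes were chosen by the FLX minus VEH difference of Wfs1, which was known beforehand, so treatment differences of members are given as a description and not as tests.

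Translating ribosome affinity purification (TRAP) recovers mRNA bound to tagged ribosomes of 1 genetically defined cell population. All mice carried the S100a10 bacTRAP transgene (line ES691), in which the S100a10 promoter drives the ribosomal tag, and the constitutive p11 knockout, p11 being the protein encoded by S100a10. They had been backcrossed from FVB to C57BL/6 for 3 to 5 generations. The FLX group drank fluoxetine, a selective serotonin reuptake inhibitor, at 0.167 mg per ml in 1% saccharine, and the VEH group drank 1% saccharine alone, each for 15 to 18 days. Each group had 3 arrays of cortical TRAP RNA, and the mouse's age and the number of mice pooled per array are not given in the labels. Per the series text, some cells that carry the tag are not neurons, and arrays of wild-type mice or unpurified RNA are not analysed here. The comparison asks what chronic fluoxetine does to translated mRNA in these cells when p11 is absent.

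The ER is the main calcium store of a neuron. Pumps of the SERCA family load it, inositol trisphosphate receptors and ryanodine receptors release calcium from it, and STIM proteins sense its filling and open channels in the plasma membrane when it runs low. Wolframin, the product of Wfs1, is an ER membrane protein whose loss causes Wolfram syndrome and which is linked both to ER calcium and to restraint of the stress sensor ATF6.

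The regions just upstream of 4 member genes are shown because each of these genes had a probe set whose FLX values all lay above its VEH values. Each is the 250 bases before the annotated start in RefSeq's GRCm38.p6 table, 5′ to 3′ on the gene's own strand. Capitals mark the 2 parts of the ER stress response element, CCAAT and CCACG, on either strand (ATTGG and CGTGG on the other).
Wfs1 (chr5:36988983-36989232, strand -): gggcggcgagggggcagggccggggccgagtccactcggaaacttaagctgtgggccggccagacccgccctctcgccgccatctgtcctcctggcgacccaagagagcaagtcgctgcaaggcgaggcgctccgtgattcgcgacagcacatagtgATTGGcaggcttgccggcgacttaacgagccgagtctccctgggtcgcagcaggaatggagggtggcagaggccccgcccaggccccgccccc
Ryr2 (chr13:12106946-12107195, strand -): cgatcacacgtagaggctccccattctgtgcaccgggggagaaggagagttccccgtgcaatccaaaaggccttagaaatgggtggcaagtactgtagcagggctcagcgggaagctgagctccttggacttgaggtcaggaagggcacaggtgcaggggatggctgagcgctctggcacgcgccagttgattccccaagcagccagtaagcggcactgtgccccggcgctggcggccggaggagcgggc
Stim2 (chr5:53998273-53998522, strand +): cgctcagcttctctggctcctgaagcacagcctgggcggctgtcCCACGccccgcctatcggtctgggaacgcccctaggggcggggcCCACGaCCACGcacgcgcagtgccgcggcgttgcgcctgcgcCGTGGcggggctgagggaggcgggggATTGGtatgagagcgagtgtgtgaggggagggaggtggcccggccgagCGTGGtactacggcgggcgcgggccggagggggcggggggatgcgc
Itpr2 (chr6:146502224-146502473, strand -): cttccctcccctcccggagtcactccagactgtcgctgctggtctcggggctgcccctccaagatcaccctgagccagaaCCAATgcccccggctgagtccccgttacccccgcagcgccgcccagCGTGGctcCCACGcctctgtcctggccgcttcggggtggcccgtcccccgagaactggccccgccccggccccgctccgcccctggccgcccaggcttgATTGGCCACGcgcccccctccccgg
The Wfs1 region held 1 CCAAT match and 0 CCACG matches, the Ryr2 region held neither, and the Stim2 region held 1 and 5. The Itpr2 region held 2 CCAAT and 3 CCACG matches. The whole element, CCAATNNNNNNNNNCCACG, had 0 matches on both strands in these regions, as did the unfolded protein response element TGACGTGG and the cAMP response element TGACGTCA. Among 32851 regions of the same length in the table, CCAAT occurred in 33.8%, CCACG in 28.3%, the whole ER stress element, which contains both, in 0.113%, TGACGTGG in 0.563% and TGACGTCA in 1.55%. The table held 7 of the 10 genes. GC content was 69.6% for Wfs1, 63.2% for Ryr2, 74.8% for Stim2 and 74.4% for Itpr2, against a median of 52.4% over all regions.

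Of the 27 member probe sets, 15 had a mean of 50 or more in at least 1 group, the minimum used for testing, and these stood for 8 genes. The other 12 had values from 4.69 to 52.7 over the 6 arrays. Both probe sets of Atp2a3, which encodes the SERCA pump known from blood and endothelial cells, were among the latter, at 17.0 to 32.7. Values are GCRMA-normalized intensities on a linear scale, which can be compared between arrays for 1 probe set but not between probe sets. The arrays had medians of 38.5 to 41.9 over the probe sets other than controls, and the number of arrays limits the precision. In both groups the replicate 3 array stood apart, correlating at 0.867 to 0.916 with the other arrays and at 0.973 with each other over the probe sets tested. The brightest S100a10 probe set, of the x_at type, ran from 349 to 3111 and the other S100a10 probe sets from 4.98 to 49.4. Where its probes lie relative to the deletion is not known here, so these values check nothing about the genotype. Markers of layer 5 pyramidal neurons were present, 7 of 7 named genes (8 listed) reaching the minimum. The same held for 8 of 8 markers each of astrocytes, interneurons and the leptomeninges, so reaching the minimum does not single out layer 5.

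Wfs1 had the largest treatment difference of the members. Its 1 probe set, 1448411_at, gave 822, 1402 and 816 with fluoxetine and 411, 693 and 328 with vehicle, in the order of replicates 1, 2 and 3 that is used for all values below. The lowest FLX array lay above the highest VEH array, and the FLX array was the higher in each of the 3 pairs of equal replicate number. Group means were 1013 ± 337 and 477 ± 192 (SD, n = 3 each), a log2 difference of 1.11 (SE 0.37) or 2.16-fold. The differences within pairs 1, 2 and 3 were 1.00, 1.02 and 1.32. Under this matching their spread was smaller than the spread within each group. Replicates 1 and 2 cannot be shown to be pairs, however. Matched the other way, 822 would stand against 693 and 1402 against 411, and the differences would be less alike. Replicate 2 held the highest value of each group. Without both replicate 3 arrays the difference was 1.01. In bulk TRAP RNA, fewer tagged cells of a type and less RNA per cell cannot be told apart. Of the 22200 probe sets tested, 13 had a difference at least as high as that of Wfs1, itself included. Likewise 4 were at least as high as its smallest pair difference in all 3 pairs, a count that rests on the matching by replicate number. Since Wfs1 was chosen for its difference, its rank supports nothing.

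No probe set passed the test over the whole array. limma's moderated test with treatment as its only term called 0 of the 22200 probe sets (0%) at an adjusted p of 0.05, and so called no member. With the replicate number as a block it also called 0 (0%). The counts with an unadjusted p under 0.05 were 83 without the block and 1764 with it. The labels call the arrays biological replicates but do not say what a replicate number stands for.

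**Figure D1:**
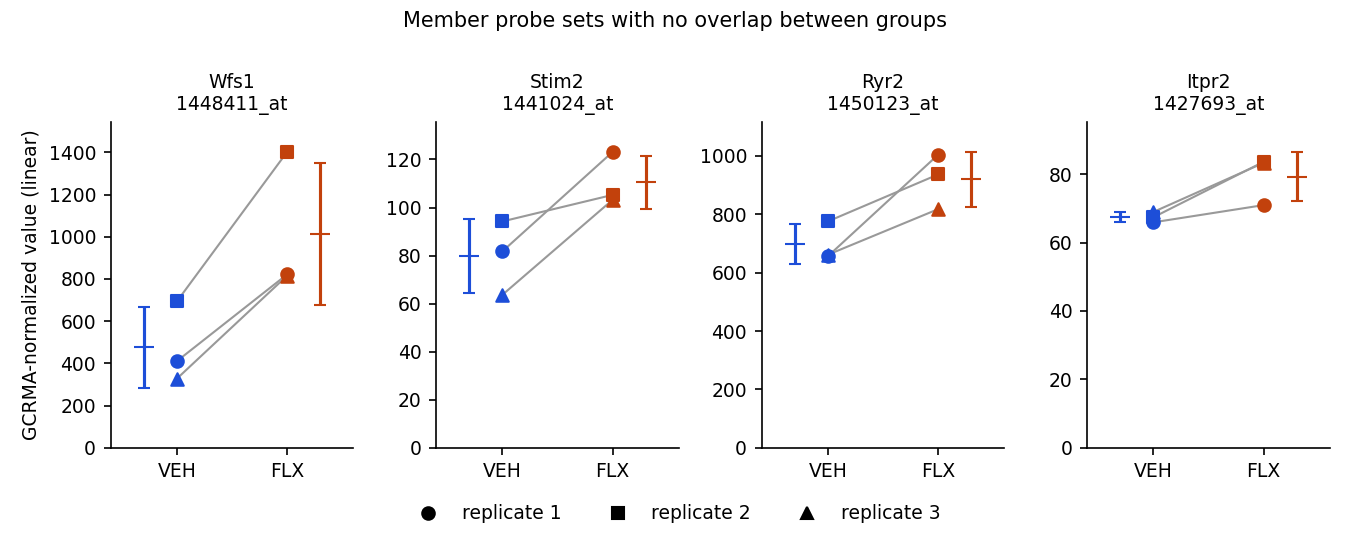
GCRMA-normalized value (linear axis from 0) of the 4 member probe sets whose groups did not overlap, for VEH (blue) and FLX (orange), with grey lines joining arrays of equal replicate number and bars at the side showing mean ± SD (n = 3). Every FLX point lies above every VEH point in each panel, with Wfs1 at 816 to 1402 against 328 to 693.

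Among the calcium release channels, Ryr2 also had no overlap between the groups. Ryr2 encodes the ryanodine receptor best known from heart muscle and also the main one of the forebrain. Probe set 1450123_at gave 1004, 937 and 818 in the FLX arrays and 656, 776 and 661 in the VEH arrays. All FLX arrays lay above all VEH arrays, with the smallest gap between FLX replicate 3 and VEH replicate 2. The means were 919 ± 94.4 and 698 ± 67.5 (SD, n = 3 each), a log2 difference of 0.40 (SE 0.19), and the pair differences were 0.61, 0.27 and 0.31. The other Ryr2 probe set, 1421126_at, lay between 4.69 and 5.17. Ryr3, which encodes another ryanodine receptor of the brain, had 1 of its 3 probe sets just above the minimum. Probe set 1427427_at had 52.0, 55.2 and 72.6 in FLX and 54.7, 60.4 and 59.9 in VEH, so the groups overlapped, with a log2 difference of 0.02 (SE 0.21).

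Itpr2, the inositol trisphosphate receptor best known from astrocytes, had 3 tested probe sets that differed among themselves. Probe set 1427693_at gave 70.9, 83.6 and 83.3 in FLX and 65.9, 67.4 and 68.9 in VEH, without overlap, a log2 difference of 0.23 (SE 0.18). Probe set 1427287_s_at gave 83.4, 207 and 28.2 against 143, 164 and 31.4, and 1424834_s_at gave 71.1, 142 and 63.2 against 118, 130 and 40.8. In both the groups overlapped and the replicate 3 arrays were the lowest of their groups, with log2 differences of -0.20 (SE 0.93) and 0.01 (SE 0.55). An s_at probe set can match several transcripts. Astrocyte markers, given here because astrocytes express Itpr2, had a positive treatment difference in 5 of 8 genes, each of them higher in FLX in all 3 pairs, with a median of 0.32 over the list. The list was uneven. Its other 3 genes were negative, Gjb6 at -0.28, Gja1 at -0.04 and Slc1a3 at -0.006, and lower in FLX in pair 1. Gfap, which encodes the intermediate filament of astrocytes, gave 370, 372 and 1546 in FLX and 109, 159 and 547 in VEH, a log2 difference of 1.496 (SE 0.81). Aqp4, the water channel of astrocyte endfeet, gave 209, 489 and 463 against 117, 326 and 120, a log2 difference of 1.12 (SE 0.53). In both genes the groups overlapped, while FLX was the higher in each pair. The summed level of the list was 21712, 36074 and 11483 in FLX and 27971, 32702 and 8823 in VEH arrays. That sum was lower in FLX in pair 1 and higher in pairs 2 and 3. The list medians in pairs 1, 2 and 3 were instead 0.42, 0.28 and 0.27. Gja1 gave the largest part of the sum in every array. Since levels are not comparable between probe sets, the sum does not describe the list as a whole. The part of these markers in the Itpr2 values was not tested.

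Atp2a2 encodes SERCA2, the pump that loads the ER of most cells, neurons included. Its brightest probe set, 1416551_at, gave 15320, 15359 and 5473 in FLX and 11018, 14513 and 4274 in VEH. The groups overlapped, while the replicate 3 array was the lowest of each group. The log2 difference was 0.30 (SE 0.61), and pairs 1, 2 and 3 gave 0.48, 0.08 and 0.36. Probe sets 1452363_a_at and 1427250_at also had replicate 3 lowest in each group, and differences of 0.31 (SE 0.75) and 0.43 (SE 0.82). All 3 were higher in FLX in all 3 pairs, by 0.07 to 0.10 in pair 2. Without both replicate 3 arrays the differences stayed positive, at 0.28, 0.36 and 0.21 in the order named. Without the VEH replicate 3 array alone they were -0.22, -0.29 and -0.37, but that comparison keeps a low replicate 3 array in the FLX group only. The other 3 Atp2a2 probe sets stayed under the minimum, the brightest of them, 1427251_at, with a highest value of 52.7.

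STIM1 and STIM2 are the calcium sensors of the ER membrane, STIM2 responding to smaller losses of stored calcium. Stim2 probe set 1441024_at gave 123, 105 and 103 in FLX and 81.7, 94.2 and 63.7 in VEH, without overlap, a log2 difference of 0.48 (SE 0.22). The brighter Stim2 probe set, 1434219_at, gave 1068, 1250.5 and 639 against 1146, 1484 and 641, and its difference was -0.12 (SE 0.41), with FLX the lower in all 3 pairs. The probe sets of Stim2 had opposite directions, and which transcript each one reads was not determined. Stim1 probe set 1448320_at gave 287, 325 and 135 against 249.6, 386 and 199, with a difference of -0.20 (SE 0.43). Stim1 probe set 1436945_x_at had 269.9, 269 and 189.8 in FLX and 252, 258 and 427 in VEH, and VEH replicate 3 was the highest of the 6 arrays. Its log2 difference of -0.34 (SE 0.30) became 0.08 without both replicate 3 arrays.

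Cisd2 encodes an iron-sulfur protein of the ER and mitochondrial outer membrane and is the second gene of Wolfram syndrome. Its brightest probe set, 1428441_at, gave 1123, 1167 and 526 in FLX and 1153, 1252 and 631 in VEH. The groups overlapped, FLX was the lower in all 3 pairs, and the log2 difference was -0.13 (SE 0.43). Probe set 1430992_s_at had the opposite sign at 0.32 (SE 0.43), with a pair 3 difference of 0.78 against -0.03 and 0.21 in pairs 1 and 2. Of the Wolfram syndrome genes, Wfs1 thus had pair differences of 1.00 to 1.32 and the brightest Cisd2 probe set -0.26 to -0.04.

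**Figure D2:**
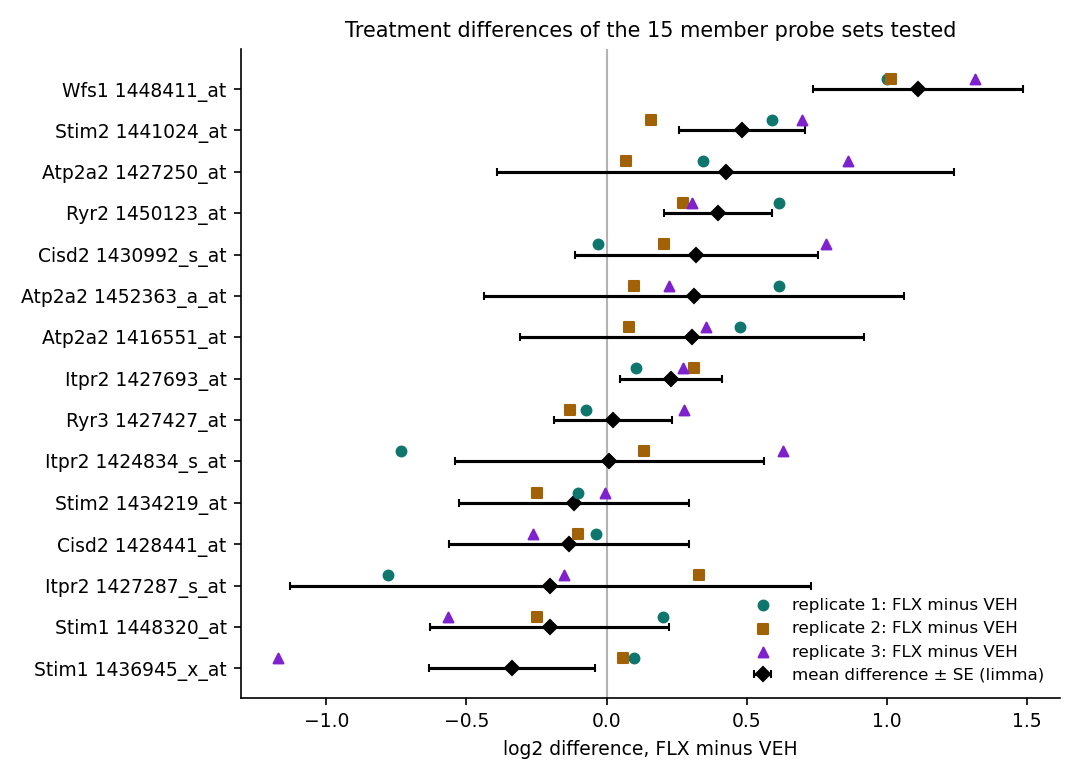
Log2 difference, FLX minus VEH, for the 15 member probe sets tested. Black diamonds and bars give the mean difference ± SE from limma (3 arrays per group), and coloured symbols give the difference between arrays of equal replicate number. Wfs1 lies at 1.11 with its 3 pairs at 1.00, 1.02 and 1.32, and the other members lie between -0.34 and 0.48.

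Counted over the 15 tested member probe sets, the FLX values lay wholly above the VEH values in 4, which were those of Wfs1, Ryr2, Stim2 and Itpr2 given above, and wholly below in 0. Over all 22200 probe sets tested the shares were 2.55% and 1.79%. FLX was the higher in all 3 pairs in 7 of the 15, where all probe sets gave 19.6%, and the lower in all 3 pairs in 2, where all gave 13.7%. The difference was positive in 10 and negative in 5, against 57.2% positive over all. The median difference was 0.23 for the members and 0.04 for all probe sets tested. Members were chosen with this contrast known, so these counts support nothing about the group. The median of the members was 0.15 without both replicate 3 arrays, and 0.11, 0.10 and 0.28 within pairs 1, 2 and 3. It depended on single arrays and on the filter. Leaving out replicate 3 in 1 group only leaves the other group's low array in the comparison. The median was -0.22 without the VEH replicate 3 array, 0.47 without FLX replicate 3, 0.06 without FLX replicate 2 and 0.12 without FLX replicate 1, and 0.01 over all 27 member probe sets. The direction turned in at least 1 planned setting for 11 of the 15, and the other 4 were those without overlap, whose direction cannot turn when an array is left out.

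Replicate number separated the members along another line. In replicate 3, compared with the mean of replicates 1 and 2 of the same group, 12 of the 15 tested member probe sets had lower values in both groups, against 38.8% of all probe sets tested, and 2 had higher values in both, none of them (0 of 15) by 2-fold or more, against 5.65% of all. The median over the members was -0.67 in FLX and -0.93 in VEH arrays, and over all probe sets tested 0.10 and -0.03. Values were at least 2-fold lower in both groups in 4 of the 15 member probe sets, against 14.7% of all. They were 1427287_s_at of Itpr2 and all 3 tested probe sets of Atp2a2, which read 1 gene and are not separate cases. The brightest Atp2a2 probe set was at -1.49 in FLX and -1.56 in VEH arrays, and the brightest Cisd2 probe set at -1.12 and -0.93. Wfs1 was at -0.40 and -0.70, Ryr2 at -0.25 and -0.11, and Ryr3 at 0.44 and 0.06. Markers of several cell types moved with replicate 3 in both groups. Those of the leptomeninges were lower in both groups in 8 of 8 genes, the list median being -3.66 for FLX and -3.39 for VEH. Those of pericytes and smooth muscle were lower in both groups in 3 of 4 tested genes, with medians of -2.83 and -2.98. Rgs5 of that list went the other way, at 1.96 and 1.55. Oligodendrocyte markers had medians of 1.22 and 0.60, with 1 of 5 genes, Mag, lower in both groups at -0.87 and -1.37. Interneuron markers had medians of 0.75 and 0.69, with 1 of 8 genes lower in both groups. The replicate 3 arrays are known to stand apart, so this split was not tested, nor was the part of these markers in it.

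**Figure D3:**
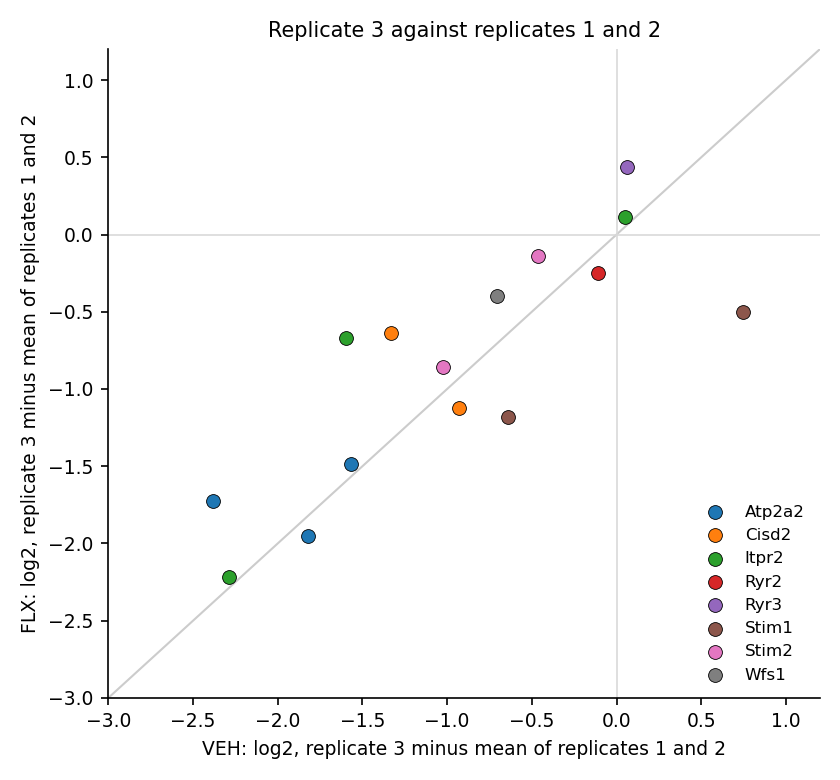
Log2 value of replicate 3 minus the mean of replicates 1 and 2, in VEH arrays (horizontal axis) and FLX arrays (vertical axis), for the 15 member probe sets tested, coloured by gene, with a grey line of equality. The Atp2a2 probe sets lie at the lower left, down to -2.38 in VEH, while Ryr2, Ryr3 and Wfs1 lie nearer 0.

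Other genes of ER calcium handling were read by the brightest probe set of each gene. Of 41 listed genes, 38 were named and 28 tested, of which limma called 0 higher and 0 lower. The difference was positive in 21 and negative in 7, with a median of 0.07, and groups did not overlap for 1 of the 28 in each direction. Over all probe sets tested these shares were 2.55% and 1.79%, so 1 gene each way is near the background and is no result about the list. Homer3, a scaffold that links glutamate receptors to inositol trisphosphate receptors, had 93.5, 95.4 and 96.8 in FLX and 146, 116 and 124 in VEH, a log2 difference of -0.43 (SE 0.19). Fkbp1a, a protein that binds ryanodine receptors, differed by 0.07 (SE 0.17). The genes of the store-operated channel that STIM proteins open lay at -0.05 for Orai1 and 0.04 for Orai3, and Orai2 stayed under the minimum. In replicate 3, 13 of the 28 were at least 2-fold lower in both groups, and the medians over the list were -1.16 for FLX and -1.30 for VEH. Jph1, which encodes a junctophilin that ties the ER to the plasma membrane, went the other way, at 1.53 and 2.01.

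ER stress and chaperone genes were set beside Wfs1 because wolframin is tied to the ER stress response. Of 26 named genes 25 were tested, of which limma called 0 higher and 0 lower, 19 were positive and 6 negative, with a median difference of 0.19. The medians in pairs 1, 2 and 3 were 0.08, -0.01 and 0.45. Wfs1 differed by 1.00 or more in each pair, but it was chosen for its difference. Its distance from the list median therefore supports nothing. For the members the medians were 0.11, 0.10 and 0.28, and for all probe sets tested 0.01, -0.01 and 0.14. In replicate 3, 19 of the 25 were at least 2-fold lower in both groups, and the list had medians of -1.79 (FLX) and -1.95 (VEH). Hspa5, the main ER chaperone, gave 8262, 10985 and 2284 in FLX and 7491, 10741 and 966 in VEH, with both replicate 3 arrays low. Ddit3, a transcription factor induced by ER stress, was the 1 gene of the 25 whose groups did not overlap, again near the background of 1.79% lower and 2.55% higher over all probe sets. It had 550.3, 589 and 450.3 in FLX against 751, 644 and 738 in VEH, a log2 difference of -0.43 (SE 0.20), and was lower in FLX in all 3 pairs.

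**Figure D4:**
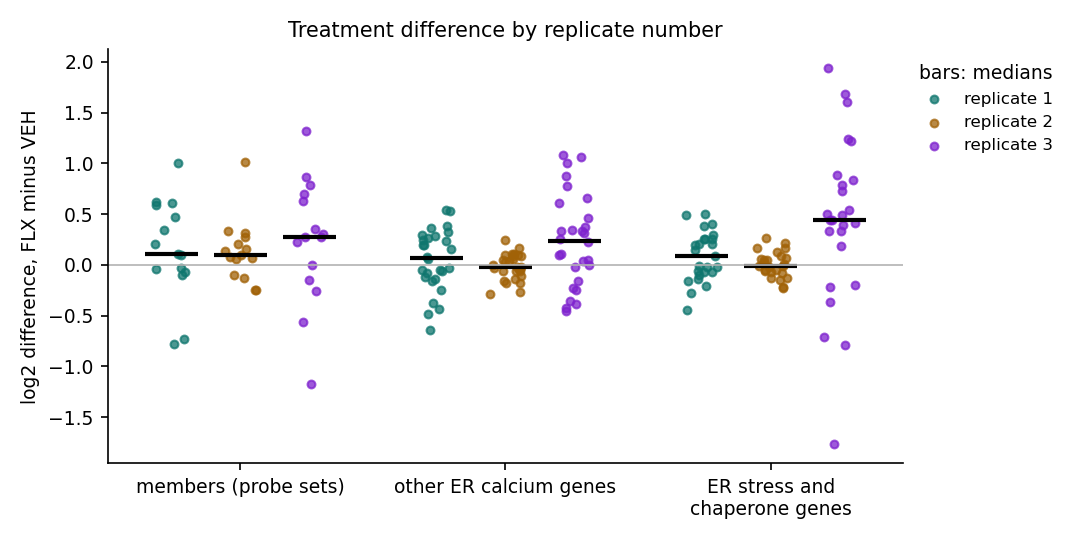
Log2 difference between the FLX and VEH arrays of equal replicate number, for the 15 tested member probe sets, 28 other ER calcium genes and 25 ER stress and chaperone genes, with black bars at the medians. The replicate 2 medians are 0.10, -0.02 and -0.01, and the replicate 3 median of the ER stress genes is 0.45. Wfs1, which was chosen for its difference, lies at 1.02 in replicate 2.

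The genes whose pattern over the 6 arrays was most like that of Wfs1, by Pearson's r of log2 values over all tested probe sets, were Mapk8ip2 (r = 0.98), BC031361 (0.98), Atl1 (0.98), Cdh9 (0.97) and Atf6 (0.97). These values are a description over 6 arrays that share a treatment and a replicate number. All 5 had smaller treatment differences than Wfs1, from 0.28 for BC031361 to 0.74 for Cdh9, which encodes a cadherin. Atl1 encodes atlastin, a GTPase that fuses ER tubules, and had 5006, 5434 and 4834 in FLX and 3919, 4547 and 3377 in VEH, without overlap. Atf6, the ER stress sensor that wolframin restrains, was like Wfs1 in its probe set 1456021_at, with 171, 204 and 154 in FLX and 138, 151 and 119 in VEH. Its brighter probe set gave 391, 526 and 562 against 369, 439.6 and 325, which overlapped. Among the members, Ryr2 had r = 0.87 with Wfs1, Stim2 probe set 1441024_at 0.83 and the brightest Atp2a2 probe set 0.58.

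**Figure D5:**
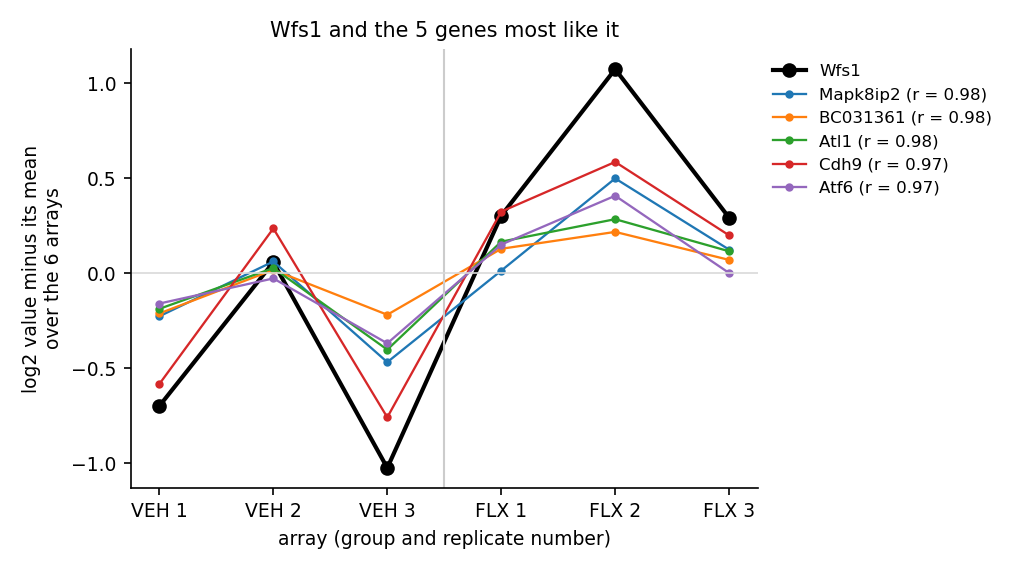
Log2 value minus its mean over the 6 arrays for Wfs1 (black) and the 5 genes with the highest Pearson r to it, by array. Lines only guide the eye. All 6 genes are highest in FLX replicate 2 and lowest in VEH replicate 3, and Wfs1 has the widest range.

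Wfs1 is known as a marker of hippocampal CA1 neurons and is also found in upper cortical layers and the striatum, so markers of these cells were read beside it. Of the CA1 and subiculum list, 6 of 8 genes were named and 4 tested, 2 positive and 2 negative, with a median difference of 0.16. Fibcd1 and Spink8, its most restricted markers, stayed under the minimum in both groups at 16.7 to 29.9 and 14.9 to 16.7. Markers of layers 2 to 4 were positive in 7 of 8 genes with a median of 0.38, and their summed level was 17237 to 37431 in FLX and 13372 to 27666 in VEH arrays. The largest part of that sum in every array came from the 1 probe set of Calb1, a gene also listed for Purkinje cells. Markers of layer 5 were positive in 7 of 7 with a median of 0.27, and 4 of the 7 were higher in FLX in all 3 pairs. In pairs 1, 2 and 3 the layer 5 medians were 0.40, 0.007 and 0.45. The groups overlapped for each of these 7 genes. Their summed level was 49922 to 55492 in FLX and 43261 to 47678 in VEH arrays, but most of it in every array came from the 1 probe set of Pcp4, whose difference was 0.12 (SE 0.25), and since levels are not comparable between probe sets the sum describes mainly that gene. Striatal markers were positive in 6 of 7 with a median of 0.26, and Drd2 stayed under the minimum. Positive medians were not particular to these cells. They were 0.44 for Purkinje cell markers (2 genes tested), 0.32 for astrocytes, 0.29 for layer 6 neurons (4 tested), 0.25 for endothelial cells (3 tested) and 0.22 for interneurons. The last 3 were not positive in every pair. Medians in pairs 1, 2 and 3 were 0.18, -0.13 and 0.49 for layer 6, -0.43, 0.10 and 1.12 for endothelial cells and 0.49, -0.20 and 0.37 for interneurons. Oligodendrocyte and microglia markers had medians of 0.09 and 0.07 over the 6 arrays, and 57.2% of all probe sets tested were positive. The lists of pericytes and smooth muscle and of the leptomeninges went the other way. Markers of pericytes and smooth muscle were negative in 4 of 4 tested genes with a median of -0.68, and their summed level was 1987 to 5024 in FLX and 2052 to 8339 in VEH arrays. Markers of the leptomeninges were negative in 6 of 8 with a median of -0.34, and their summed level was 3096 to 53744 in FLX and 5883 to 57580 in VEH arrays. The astrocyte genes Gfap and Aqp4, given above, had differences as large as that of Wfs1, with overlap between the groups. In pairs 1, 2 and 3 by replicate number, Gfap gave 1.77, 1.22 and 1.498, each above the Wfs1 value of 1.00, 1.02 and 1.32. The Gfap groups overlapped because VEH replicate 3, at 547, lay above FLX replicates 1 and 2, at 370 and 372. Replicate 3 of Gfap was 2.06 above replicates 1 and 2 in both groups. Aqp4 gave 0.83, 0.59 and 1.94, below Wfs1 in pairs 1 and 2. In the astrocyte list 3 of 8 genes were negative. As a measure of RNA integrity, the log2 ratio of 3′ over 5′ control probe sets was taken, which is higher in more degraded RNA. Its mean over Gapdh and Actb was 2.20, 2.09 and 2.08 in FLX and 2.33, 2.18 and 2.19 in VEH. That mean was lower in FLX in 3 of 3 pairs, but the Gapdh ratio alone was 1.83 in both arrays of pair 3. The part of these markers and of RNA integrity in the Wfs1 difference was not tested.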

How the data were processed

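Per the labels' protocols, cortical ribosomes were affinity-purified and 15 ng of their RNA, after DNase treatment, went through 2 amplification cycles, biotin labelling and a 1-colour Affymetrix array. The deposited table holds an intensity per probe set and array, which the authors had normalized by GCRMA (named in the submitters' processing notes, with no version there). Values of 1.60 to 76587 show a linear scale. Of 45101 probe sets, 64 were controls and stayed out of the tests, and 34945 of the others have 1 gene symbol in the platform annotation.

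limma 3.58.1 (R 4.3.3) compared FLX with VEH on log2 values of the 22200 probe sets that had a mean of 50 or more in at least 1 group. Treatment was the only term, tests were two-sided, and Benjamini-Hochberg adjustment was used at 0.05. The code was tested on simulated data. Deviations from the group means correlated at 0.70, 0.84 and 0.87 between arrays of equal replicate number. These values lay above the limit of 0.1 set for treating the numbers as pairs. But VEH replicate 1 correlated better with FLX replicate 2 (0.76), and VEH replicate 2 had 0.64 with FLX replicate 1. With replicate 3 apart in both groups, replicates 1 and 2 pass this limit however they are matched. The limit therefore cannot tell whether their numbers are pairs. The fit with the replicate block was an alternative. Named genes were all members, the 5 genes most like Wfs1, and, of each pathway list, up to 4 genes without overlap between groups. Other genes named were picked after their values were seen. Members and lists were chosen with earlier results of these data known. The probe set list that the submitters recommend was not used here. Figures were drawn with matplotlib 3.10.9.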

Additional observations from a re-analysis of the deposited data

How the results depend on the processing

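The count of probe sets called was 0 in the fit with the replicate block and in each other planned setting: no filter, a minimum of 50 in both groups, log2(value + 16), quantile normalization again, median centring, a trended robust prior, any single array left out, and both replicate 3 arrays left out. With the replicate block and a pair left out, chosen after seeing the data, it was 1 without pair 1, 86 without pair 2 and 0 without pair 3, and none of these was a member (0 of 86). The Wfs1 difference was 0.85 to 1.42 with 1 array left out, lowest without FLX replicate 2, and 1.07 to 1.11 under the settings that kept all arrays. The Ryr2 difference was 0.33 to 0.48 over all planned settings. The median of the member probe sets ran from -0.22 to 0.47 with 1 array left out, and was 0.010 with no filter, 0.017 with the brightest probe set per gene and 0.097 with the log2 mean per gene. Without both replicate 3 arrays it was 0.15. Of the 15 tested member probe sets, 11 changed direction in at least 1 planned setting, and the differences of these 11 have no settled sign. With 3 arrays per group and 1 probe set for Wfs1, no second probe set checks its difference.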
